A study of Danio rerio with 6 samples.

Results

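Keratins and claudins, the protein families that build the intermediate filaments and the tight junctions of epithelia, were followed liver by liver in adult zebrafish (Danio rerio). Members were taken by symbol: every row of the count table whose gene symbol begins with krt and a digit, or with cldn and a digit or letter. This gave 43 of 25640 genes, 18 keratins and 25 claudins. The set includes CLDND1, a claudin domain containing gene that the same pattern takes in. There were 6 libraries of polyadenylated liver RNA, 3 of wild-type (WT) and 3 of transgenic lf:Yap fish, all labelled adult, with no other allele, treatment or time. The labels do not spell out lf; in the published line it stands for the promoter of the liver fatty acid binding protein gene fabp10a, which acts in hepatocytes, and it drives Yap, a transcriptional coactivator restrained by the Hippo kinases. Whether a library came from a single fish is not stated, so a p-value speaks only of the spread among samples, part of which may be technical.

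Keratins assemble as pairs of an acidic type I and a basic type II chain, and the set of pairs an epithelium makes is a classic marker of its identity. In mammals hepatocytes make the simple pair of keratins 8 and 18, bile duct cells add keratins 7 and 19, and gut cells add keratin 20, while keratins 5, 15 and 17 belong to stratified epithelia. Claudins are membrane proteins that seal the space between neighbouring cells and decide which ions and water pass. In the liver they close the bile canaliculus between hepatocytes and line the bile ducts, and in mammals active Yap in hepatocytes is known to bring on bile duct genes.

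Libraries held 71581315 to 87543545 counts. Levels below are CPM, reads scaled to an equal library total, on library sizes scaled by TMM (trimmed mean of M values), without a correction for transcript length, so they compare livers and not genes. YAP1 (ENSDARG00000068401) read 20.4 to 27.4 CPM in WT and 291 to 443 CPM in lf:Yap, in the direction of the labels. The 11 hepatocyte markers matched, among them fabp10a, tfa and fibrinogen genes, did not all move the same way. At an adjusted p under 0.05 edgeR called 0 of them, against 0.665% of all genes it tested. DESeq2 called 2, HNF4A and tfa, against 4.57% of all genes it tested. An unadjusted edgeR p under 0.05 was found for 4 of the 11, against 11.3% of all tested genes. Log2 fold changes of 7 lay above 0 and of 4 below. They were 0.916 for HNF4A, 0.745 for tfa, 0.514 for apoa2 and 0.590 for fabp10a, each without overlap of the groups. These 4 of the 11 had lf:Yap higher and 1 more had lf:Yap lower without overlap, against 8.84% and 8.78% of all tested genes. The fibrinogen genes FGB and fga had -0.337 and -0.048, and FGB was the gene lower in lf:Yap without overlap. A higher sum in lf:Yap therefore does not stand for every marker. The 11 summed to 79520 to 89627 CPM in WT and 106029 to 116194 CPM in lf:Yap, and none was at 0. In contrast, the 13 exocrine pancreas genes matched summed to 18710, 751 and 1805 CPM in WT and to 15188, 62.7 and 21380 CPM in lf:Yap, a wide spread within each group. PTF1A, the acinar transcription factor gene, was at 0 in lf:Yap replicate 2. Lists of markers and types were set by known expression in zebrafish or mammals.

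In lf:Yap livers 2 claudin genes rose and no keratin changed past the test. Of the 43 members 42 were tested, cldn23.1 having too few reads. By edgeR's quasi-likelihood test with Benjamini-Hochberg adjustment over all genes, 2 members were higher and 0 lower in lf:Yap (5 members at an unadjusted p under 0.05), which is 4.76% of the members against 0.665% of the 24674 genes tested (0.555% higher and 0.109% lower). Both were claudins. DESeq2 and limma-voom each also called 2 claudins and 0 keratins. For DESeq2 this was 5% of the 40 members it tested, near the 4.57% of all genes it tested. Among 18 keratins 0 had an unadjusted p under 0.05, against 11.3% of all tested genes. Keratins had a median log2 fold change of -0.06 (range -0.84 to 2.62, 9 above 0 and 9 below). Claudins had one of 0.30 (range -0.85 to 2.80, 19 of 24 above 0), and all tested genes one of -0.03 (11551 of 24674 above 0). Some claudins above 0 had few reads, and the direction of several turned in fits without 1 library. Without 1 library the keratin median lay between -0.30 (without WT replicate 3) and 0.15 (without WT replicate 1), on both sides of 0, and the claudin median between 0.10 (without WT replicate 3) and 0.64 (without WT replicate 1). The groups did not overlap for 6 of the 42 members (14.3%), 5 higher and 1 lower in lf:Yap, against 17.6% of all tested genes (8.84% higher and 8.78% lower), so apart from the genes that passed, this count was not above the background.

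**Figure D1:**
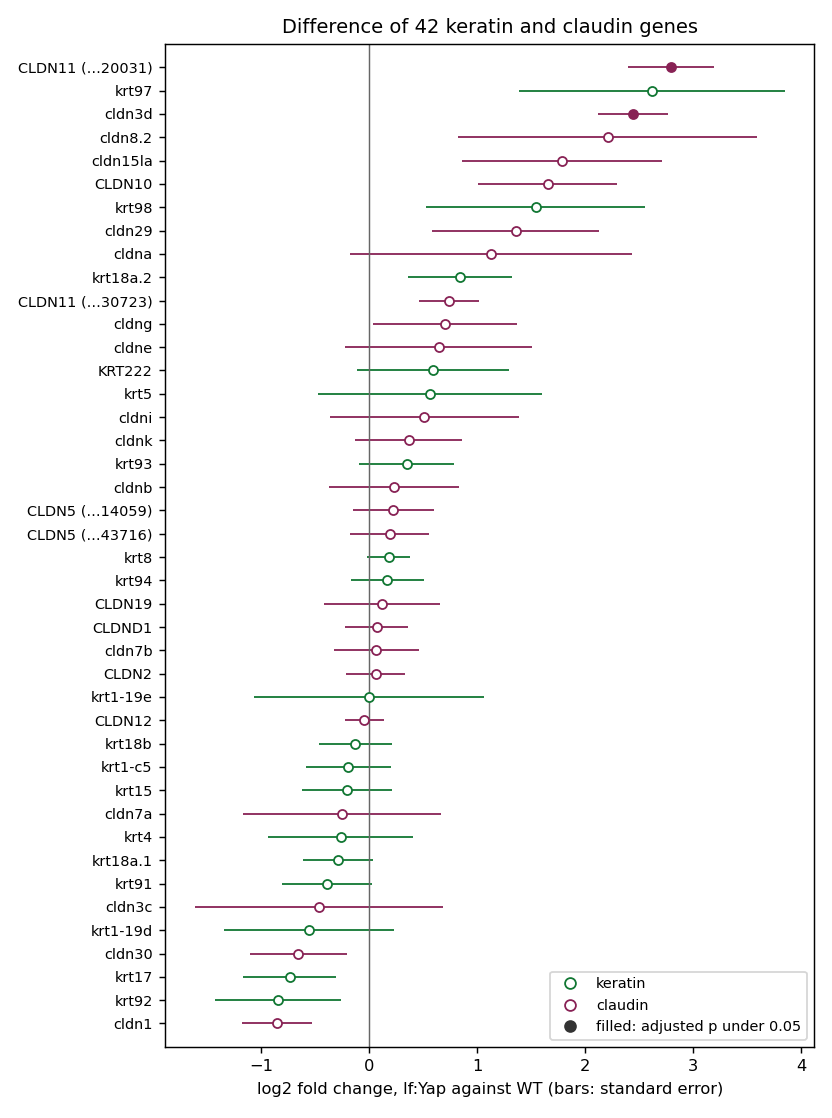
Log2 fold changes of the 42 tested members, lf:Yap against WT, with standard errors as bars; green points are keratins, purple points claudins, and filled points passed an adjusted p of 0.05. The filled points are cldn3d and the CLDN11 gene ENSDARG00000020031, and krt97 lies between them with a wider error.

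No keratin of hepatocyte type changed past the test. krt8 (ENSDARG00000058358), the type II partner of the hepatocyte pair, read 1359, 1720 and 1654 CPM in WT and 1443, 2006 and 1923 CPM in lf:Yap. The groups overlapped, and the difference was 0.18 ± 0.20 (log2, SE; adjusted p = 0.818, edgeR). krt18a.1 (ENSDARG00000018404), a type I partner, read 559, 971 and 856 CPM in WT and 411, 851 and 692 CPM in lf:Yap. Its lowest library in each group was replicate 1, and it differed by -0.29 ± 0.32 (log2, SE; adjusted p = 0.825, edgeR). krt18b (ENSDARG00000028618) read 33.6, 40.4 and 20.9 CPM in WT and 21.5, 24.7 and 40.7 CPM in lf:Yap, a difference of -0.13 ± 0.34 (log2, SE; adjusted p = 0.94, edgeR).

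krt18a.2 (ENSDARG00000058332) lies in a run with krt18a.1, krt8 and krt5 in the gene order of the RefSeq assembly GRCz12tu. A run here is a set of members with few other genes between them. krt18a.2 leaned the other way from krt18a.1. It read 10.6, 35.98 and 38.5 CPM in WT and 35.3, 62.8 and 54.5 CPM in lf:Yap. WT replicate 1 stood far below the others, and the groups overlapped by the lowest lf:Yap library alone. The difference was 0.84 ± 0.48 (log2, SE; adjusted p = 0.592, edgeR) and 0.47 without WT replicate 1. As a share of all reads on the 3 krt18 genes, krt18a.2 took 1.75%, 3.43% and 4.2% in WT and 7.55%, 6.69% and 6.93% in lf:Yap, and these groups did not overlap. The share was picked after its values were seen and is given without a test. How reads shared by such nearby copies were counted is not given in the sources used here, so a split between krt18a.1 and krt18a.2 is uncertain.

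**Figure D2:**
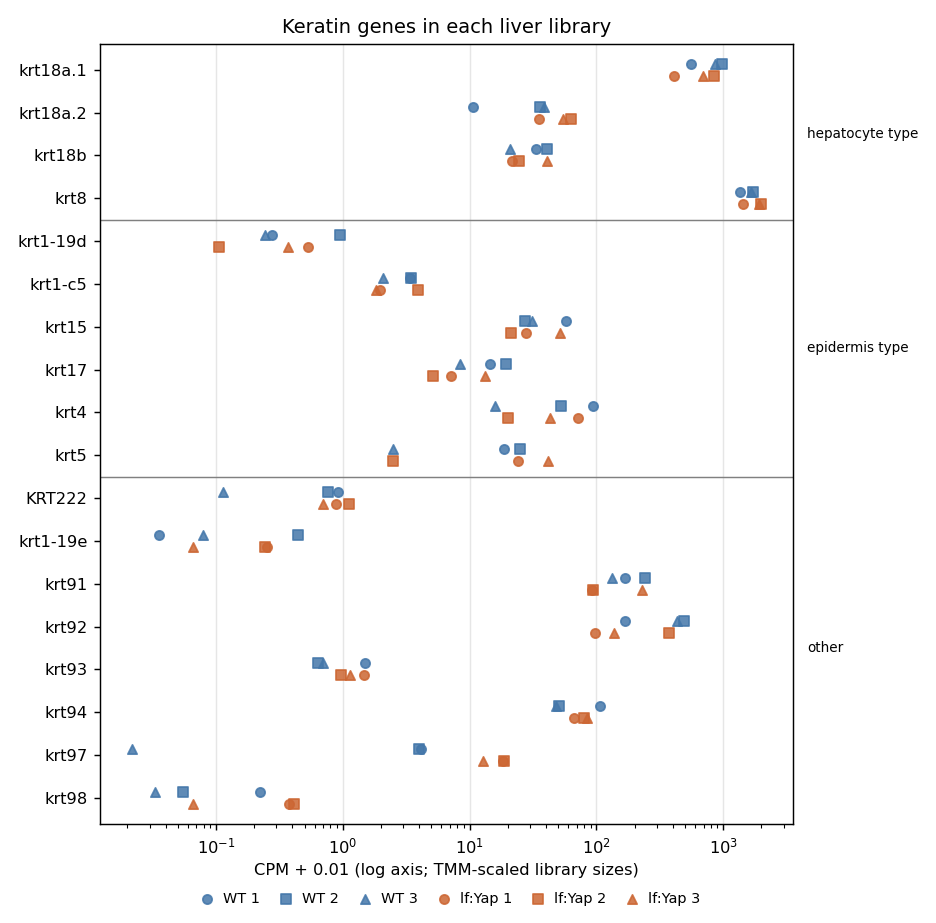
CPM of the 18 keratin genes in each library on a log axis, with 0.01 added to each value; blue is WT, orange lf:Yap, and circles, squares and triangles are replicates 1, 2 and 3. The krt8 and krt18a.1 points of both groups lie among each other, while those of krt97 are apart and krt5 falls to 2.47 and 2.49 CPM in 1 library of each group.

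Reads of the krt8 and krt18 pair made up a somewhat larger part of all keratin reads in lf:Yap. krt8 and the 3 krt18 genes together took 75.5%, 75.1% and 79.1% of keratin reads in WT and 82.3%, 82.5% and 81.4% in lf:Yap, or 76.6% ± 2.22 and 82.1% ± 0.575 (SD, n = 3 each), without overlap; this share is also given without a test. The sum of all keratins was 3178 ± 546 CPM in WT livers and 3072 ± 661 CPM in lf:Yap livers, and these overlapped. In CPM the groups also overlapped for krt8 and for each krt18 gene. The larger share therefore does not by itself show a gain of krt8 or krt18 reads, since it also depends on the other keratins. Of those, krt92, krt91 and krt94 had the most reads. Their log2 differences were -0.84, -0.39 and 0.17, and none passed. There were 2.25, 1.64 and 1.81 reads of krt8 per read of the krt18 genes in WT and 3.09, 2.14 and 2.44 in lf:Yap, and here the groups overlapped.

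**Figure D3:**
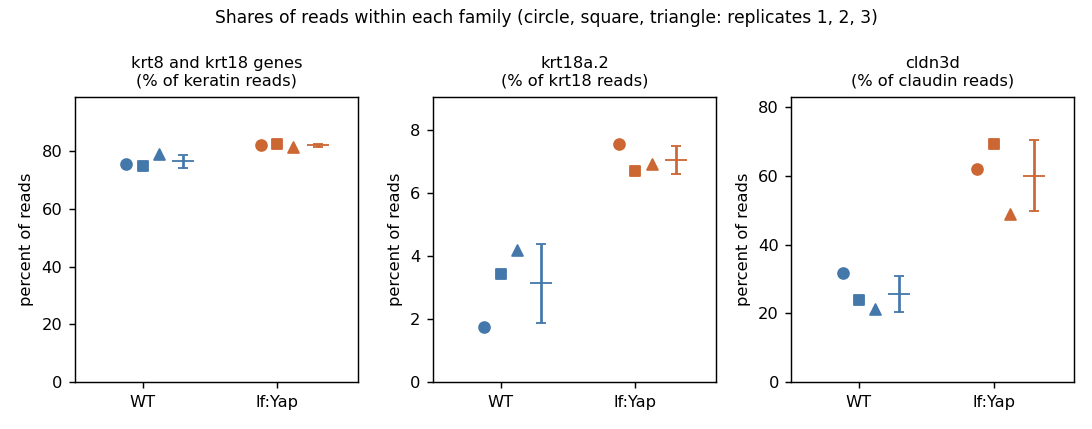
Percent of reads taken by krt8 with the krt18 genes among keratins, by krt18a.2 among krt18 genes and by cldn3d among claudins; points are libraries, and the bar beside them is the mean ± SD of 3. In each panel the 3 lf:Yap points lie above the 3 WT points, from 48.8% to 69.2% against 21.4% to 31.6% for cldn3d.

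cldn3d (ENSDARG00000015955), a paralog of claudin 3 that RefSeq also lists as cldnc, rose 5.43-fold. It read 56.2, 38.8 and 29.1 CPM in WT and 228, 282 and 164 CPM in lf:Yap. Every lf:Yap library lay above every WT library by a wide margin. The log2 fold change was 2.44 ± 0.33 (SE; adjusted p = 0.0282, edgeR; 2.25e-09, DESeq2). In mammals claudin 3 seals junctions of hepatocytes and is also made by bile duct and gut cells, so the gene does not tell these epithelia apart. In bulk tissue a change in the number of cells of a type and a change of RNA per cell cannot be told apart. The difference kept its direction whichever library was left out (2.23 to 2.74 in 6 fits), but passed in only that without WT replicate 1, at an adjusted p of 0.0456; the others gave 0.0513 to 0.1675.

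Most of the added claudin reads were those of cldn3d. All claudins summed to 159 ± 21.2 CPM in WT livers and 370 ± 35.9 CPM in lf:Yap livers, and without cldn3d to 118 ± 9.25 and 146 ± 23.7 CPM (SD, n = 3 each). Its share of claudin reads was 31.6%, 23.8% and 21.4% in WT and 62.0%, 69.2% and 48.8% in lf:Yap. None of the members near cldn3d in RefSeq gene order passed. cldn3c (ENSDARG00000069503), also listed as cldnh, read 5.50, 0.915 and 0.208 CPM in WT and 2.91, 0.330 and 1.55 CPM in lf:Yap, spread over more than the difference between groups (-0.46 ± 1.148, log2, SE; adjusted p = 0.936, edgeR). cldnb, cldn29 and cldn30, the other members of this run, had log2 fold changes of 0.23, 1.36 and -0.65 and did not pass. cldn29 counted only 2 to 23 reads per library.

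None of the other claudins of hepatocyte type passed. CLDN2 (ENSDARG00000044387), a pore-forming claudin for cations and water, read 59.5, 64.3 and 51.0 CPM in WT and 51.6, 46.1 and 84.6 CPM in lf:Yap. The lf:Yap libraries lay on both sides of WT, and the difference was 0.06 ± 0.27 (log2, SE; adjusted p = 0.965, edgeR). CLDN12 (ENSDARG00000003927) read 27.2, 29.1 and 34.5 CPM in WT and 29.96, 29.0 and 29.2 CPM in lf:Yap, a narrow range (log2 difference -0.04 ± 0.18, SE; adjusted p = 0.965, edgeR). cldn1 (ENSDARG00000040045), a barrier claudin of bile canaliculi in mammals, read 2.46, 1.86 and 2.69 CPM in WT and 0.973, 1.65 and 1.26 CPM in lf:Yap. It was the only member whose groups did not overlap with lf:Yap lower, by -0.85 ± 0.32 (log2, SE), and did not pass (adjusted p = 0.386, edgeR; 0.211, DESeq2). Of the 9 hepatocyte-type members, 1 rose and 0 fell, against 0.555% and 0.109% of all tested genes. The 1 that rose was cldn3d, which does not tell hepatocytes from bile duct and gut cells. An unadjusted p under 0.05 was found for 2 of the 9, against 11.3% of all tested genes. The median log2 fold change of the 9 was -0.04.

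**Figure D4:**
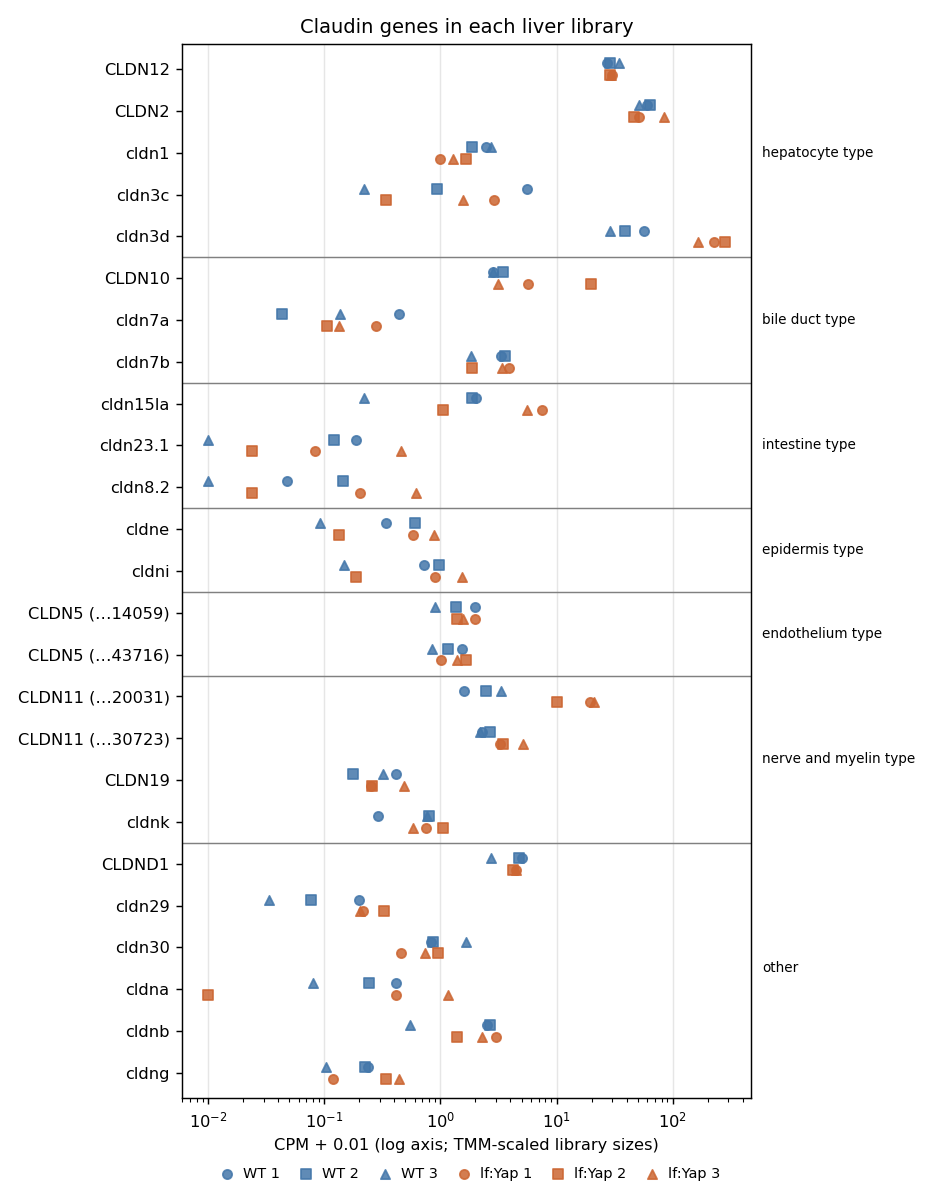
CPM of the 25 claudin genes in each library on a log axis, with 0.01 added to each value; blue is WT, orange lf:Yap, and circles, squares and triangles are replicates 1, 2 and 3. The orange points of cldn3d and of the CLDN11 gene ENSDARG00000020031 stand clear of the blue ones, those of CLDN12 and CLDN2 do not, and in the CLDN10 row lf:Yap replicate 2 is far to the right.

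The bile duct-type members were all claudins, and none changed past the test. No keratin of bile duct type was among the members. CLDN10 (ENSDARG00000058937) has a human-style symbol, so which of several zebrafish cldn10 genes it is was not resolved; in mammals claudin 10 forms ion channels in ducts and kidney tubules. It read 2.82, 3.44 and 2.85 CPM in WT and 5.62, 19.9 and 3.13 CPM in lf:Yap. lf:Yap replicate 2 was far above the rest, replicate 1 lay above every WT library and replicate 3 fell within WT. The difference of 1.65 ± 0.64 (log2, SE; adjusted p = 0.395, edgeR) was 0.53 without lf:Yap replicate 2. cldn7b (ENSDARG00000014047), a claudin of simple epithelia, read 3.32, 3.57 and 1.82 CPM in WT and 3.92, 1.85 and 3.35 CPM in lf:Yap, the same range in both groups (0.07 ± 0.39, log2, SE; adjusted p = 0.975, edgeR). Its paralog cldn7a (ENSDARG00000036376) counted only 3 to 34 reads per library. By edgeR 0 of 3 such members passed, with 1 at an unadjusted p under 0.05 (11.3% of all tested genes were), and DESeq2 and limma-voom called 0.

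Other bile duct markers lay on both sides of 0. The 11 genes matched summed to 784, 798 and 645 CPM in WT and 633, 675 and 870 CPM in lf:Yap, and none was at 0. Most of each sum was ANXA4 (ENSDARG00000036456), at 631, 522 and 408 CPM in WT and 472, 480 and 652 CPM in lf:Yap. It differed by 0.04 ± 0.23 (log2, SE), and the sums mainly follow this gene. By edgeR 0 rose and 1 fell, against 0.555% and 0.109% of all tested genes. The log2 fold changes of 4 lay above 0 and of 7 below. An unadjusted p under 0.05 was found for 4 of the 11, against 11.3% of all tested genes. The groups did not overlap for 1 gene with lf:Yap higher and for 3 with lf:Yap lower, against 8.84% and 8.78% of all tested genes. ONECUT2 (ENSDARG00000090387), a transcription factor of the biliary lineage, fell from 19.2, 20.6 and 17.9 CPM to 8.26, 7.41 and 7.90 CPM (-1.29 ± 0.18, log2, SE; adjusted p = 0.0348, edgeR). ONECUT2 also passed by DESeq2 (adjusted p = 3.36e-08) and by limma-voom (adjusted p = 0.03465). It passed in none of the 6 fits without 1 library (adjusted p of 0.0733 to 0.161, edgeR), nor with a replicate block (0.161), and kept its direction in those fits. Its relative ONECUT1 (ENSDARG00000007982) read 2.26, 2.29 and 1.53 CPM in WT and 5.62, 5.91 and 5.81 CPM in lf:Yap, without overlap (1.51 ± 0.26, log2, SE; adjusted p = 0.0649, edgeR; 1.3e-05, DESeq2). A SOX9 gene (ENSDARG00000043923), a duct transcription factor gene, read 8.41, 12.6 and 8.54 CPM in WT and 4.40, 7.08 and 6.54 CPM in lf:Yap (adjusted p = 0.398, edgeR). ALCAM (ENSDARG00000026531), an adhesion molecule of bile duct cells, read 3.96, 4.07 and 3.72 CPM in WT and 1.69, 3.195 and 2.203 CPM in lf:Yap, also without overlap (-0.73 ± 0.30, log2, SE; adjusted p = 0.424, edgeR). epcam (ENSDARG00000040534), a surface protein of duct cells, differed by -0.14 ± 0.27 (log2, SE).

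Intestine-type claudins varied more between livers of a group than between groups. cldn15la (ENSDARG00000016081), a claudin of the zebrafish gut epithelium, read 2.03, 1.84 and 0.208 CPM in WT and 7.45, 1.05 and 5.60 CPM in lf:Yap. lf:Yap replicates 1 and 3 were high, replicate 2 fell below WT replicates 1 and 2, and WT replicate 3 was lowest of all. The difference of 1.79 ± 0.92 (log2, SE) did not pass (adjusted p = 0.543, edgeR), and without WT replicate 3 it was 1.26. cldn8.2 (ENSDARG00000040628) counted 3, 12 and 0 reads in WT and 16, 1 and 44 reads in lf:Yap. cldn23.1 (ENSDARG00000028096) counted 14, 10 and 0 reads in WT and 6, 1 and 32 reads in lf:Yap, and at such counts a difference was not detectable. By edgeR 0 of 2 tested intestine-type members passed, 0 at an unadjusted p under 0.05, and limma-voom called 0. DESeq2 gave an adjusted p for cldn15la alone (0.301) and none for cldn8.2 and cldn23.1, so it could not call those.

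Gut markers were as uneven as these claudins. The 8 intestine genes matched summed to 58.5, 90.0 and 31.0 CPM in WT and 206, 12.3 and 31.2 CPM in lf:Yap. FABP6 (ENSDARG00000044566) and an LCT gene (ENSDARG00000092404) were at 0 in 1 library each. FABP6 read 45.6 CPM in WT replicate 2 and at most 0.504 CPM in the other libraries. CDH17 (ENSDARG00000005112), a gut cadherin, read 16.1, 10.98 and 7.34 CPM in WT and 29.1, 10.2 and 26.6 CPM in lf:Yap, with the same libraries high as for cldn15la. FABP2 (ENSDARG00000006427), the enterocyte fatty acid binding protein, read 39.1, 30.1 and 22.5 CPM in WT and 79.7, 0.909 and 2.11 CPM in lf:Yap, so that lf:Yap replicate 3, high in cldn15la, was low in FABP2. SLC15A1 (ENSDARG00000044528), the peptide transporter of enterocytes, read 49.1 CPM in lf:Yap replicate 1 and 0.162 to 0.443 CPM in the 5 other libraries. VIL1 and the LCT gene ENSDARG00000060671 were also high in that library alone, at 26.8 and 16.4 CPM. By edgeR 0 of 7 tested genes passed, and 4 lay above 0 and 3 below. An unadjusted p under 0.05 was found for 3, SLC15A1, FABP6 and this LCT gene, each high in 1 library, against 11.3% of all tested genes. The part of gut or pancreas tissue in the claudin values was not tested.

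Keratins and claudins of epidermis type were also uneven, though not all in the same libraries. krt5 (ENSDARG00000058371), a type II keratin of stratified epithelia, read 18.7, 24.9 and 2.47 CPM in WT and 24.1, 2.49 and 41.4 CPM in lf:Yap. WT replicate 3 and lf:Yap replicate 2 were nearly equal and far below the rest, while the groups differed by 0.56 ± 1.04 (log2, SE; adjusted p = 0.907, edgeR). krt4 (ENSDARG00000017624), a type II keratin of the zebrafish body surface and gut, read 93.9, 52.6 and 15.99 CPM in WT and 72.3, 19.97 and 43.3 CPM in lf:Yap, lowest in the same libraries. krt17 (ENSDARG00000094041) read 14.6, 19.4 and 8.42 CPM in WT and 7.15, 5.14 and 13.2 CPM in lf:Yap, and again these libraries were the lowest of their groups (log2 difference -0.73 ± 0.43, SE; adjusted p = 0.607, edgeR). krt15 (ENSDARG00000036840) read 57.1, 27.5 and 31.3 CPM in WT and 27.7, 21.2 and 51.7 CPM in lf:Yap, with overlap. The claudins cldne and cldni stayed at 0.0811 to 1.51 CPM and krt1-19d at 0.0964 to 0.949 CPM. krt1-c5 read 3.353, 3.415 and 2.061 CPM in WT and 1.971, 3.938 and 1.815 CPM in lf:Yap, so lf:Yap replicate 2 was its highest library. By edgeR 0 of these 8 members passed, 0 at an unadjusted p under 0.05, and DESeq2 and limma-voom called 0. Other epidermis markers, 9 genes with none at 0, summed to 6.90 to 9.83 CPM in WT and 6.75 to 11.7 CPM in lf:Yap. These sums were lowest in the same libraries as krt5. TP63, a gene of this list, was lowest in WT replicate 1 and lf:Yap replicate 2. Its groups did not overlap, with lf:Yap higher (0.80 ± 0.29, log2, SE, adjusted p = 0.361, edgeR). It was the only 1 of the 9 without overlap, against 8.84% of all tested genes with lf:Yap higher. The log2 fold changes of 5 of the 9 lay above 0 and of 4 below. By edgeR 0 passed, with 1 at an unadjusted p under 0.05, against 11.3% of all tested genes.

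Across all tested members, 15 of 42 (35.7%) were lowest in WT replicate 3 among WT and in lf:Yap replicate 2 among lf:Yap, against 14.3% of all tested genes. Of the 24 tested claudins 11 (45.8%) had this pattern and of the 18 keratins 4 (22.2%). The pattern was picked after the values were seen, and it was also the most common combination among all tested genes. As many keratins, 4, were lowest in replicate 1 of both groups, and 4 in replicate 3 of both groups. The summed markers of intestine, epidermis, hepatocytes and of mesothelium with stellate cells were lowest in WT replicate 3 and lf:Yap replicate 2. So were the summed junction genes. The pancreas and endothelium sums were lowest in WT replicate 2 and lf:Yap replicate 2. The bile duct sum, mostly ANXA4, was lowest in WT replicate 3 and lf:Yap replicate 1. cldn3d, krt8 and krt18a.1 did not have the pattern. Without these libraries, which leaves 2 against 2, cldn3d differed by 2.05 (adjusted p = 0.171, edgeR) and CLDN11 (ENSDARG00000020031) by 3.34 (adjusted p = 0.117, edgeR), and 0 genes of the whole table passed.

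**Figure D5:**
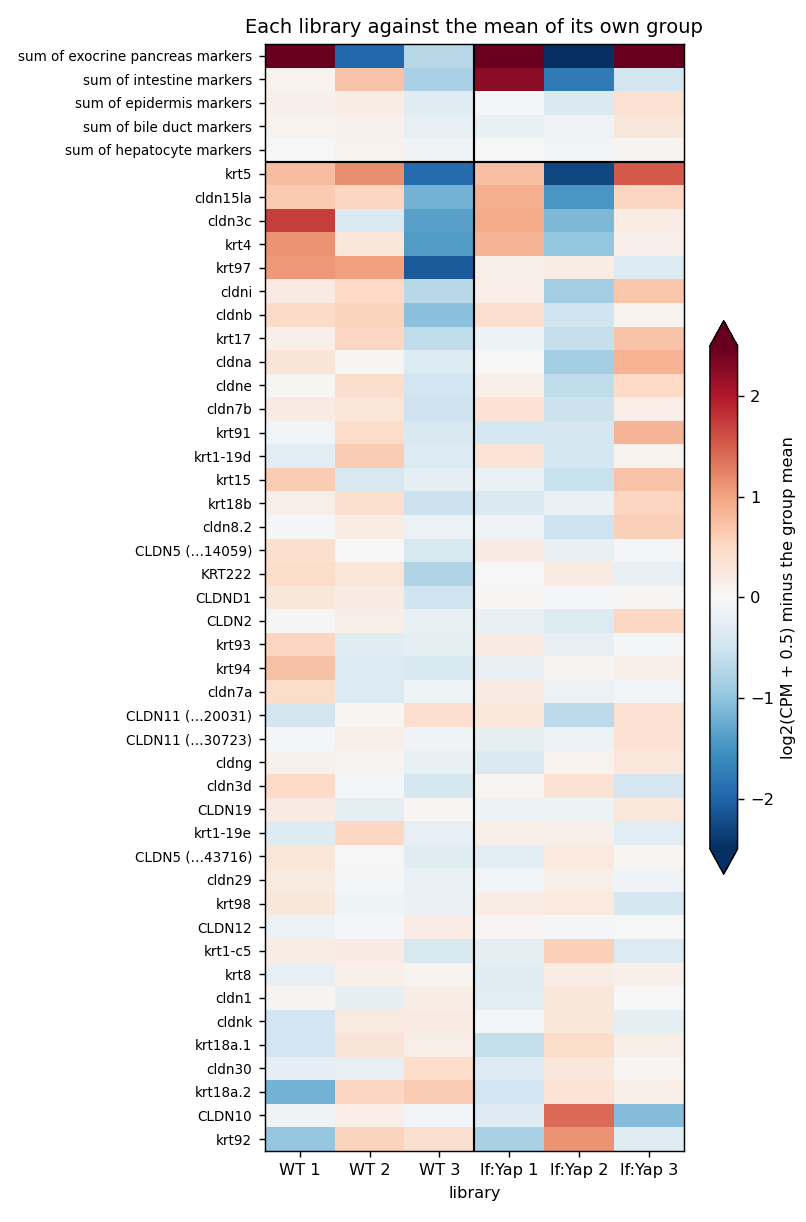
Each library against the mean of its own group, as log2(CPM + 0.5) minus that mean, for the summed markers of 5 tissues above the line and the 42 tested members below it; colours saturate at 2.5. Members are ordered by their values in WT replicate 3 and lf:Yap replicate 2; krt5, cldn15la, cldn3c and krt4, at the top, are blue in both, while krt8 and CLDN12 are pale throughout and the pancreas row alternates most strongly.

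The second member to rise was a CLDN11 gene (ENSDARG00000020031). In mammals claudin 11 forms the tight junctions of myelin and of Sertoli cells, and it is not a classic liver claudin. The gene read 1.58, 2.43 and 3.29 CPM in WT and 19.6, 10.1 and 21.0 CPM in lf:Yap. The groups did not overlap, and the increase was 6.94-fold (log2 fold change 2.80 ± 0.40, SE; adjusted p = 0.0362, edgeR; 2.80e-09, DESeq2). In the 6 fits without 1 library the log2 fold change was 2.58 to 3.06, and it passed in only that without lf:Yap replicate 2, at an adjusted p of 0.0389; the others gave up to 0.1675. Another gene with the symbol CLDN11 (ENSDARG00000030723) read 2.26, 2.65 and 2.19 CPM in WT and 3.26, 3.46 and 5.13 CPM in lf:Yap. Its groups did not overlap either, at a difference of 0.74 ± 0.28 (log2, SE) that did not pass (adjusted p = 0.381, edgeR; 0.202, DESeq2). CLDN19 and cldnk, which are nerve and myelin claudins as well, stayed at 0.167 to 0.471 and 0.277 to 1.03 CPM and did not pass.

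krt97 (ENSDARG00000000212) was the keratin with the largest difference. It read 4.15, 3.98 and 0.0116 CPM in WT, the last a single read, and 18.3, 18.8 and 12.9 CPM in lf:Yap. All 3 lf:Yap libraries lay above all WT libraries, while WT replicate 3 stood far from the others of its group. The difference of 2.62 ± 1.23 (log2, SE) did not pass (adjusted p = 0.5, edgeR; 0.494, DESeq2), and without WT replicate 3 it was 2.02 at an adjusted p of 0.0684 (edgeR). WT replicate 3 had 9 reads of KRT222, an atypical keratin-like gene, against 50 to 80 in the other libraries, and 46 reads of cldnb against 100 to 247.

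Keratins that lie near each other in RefSeq gene order differed in which libraries were high. krt92 (ENSDARG00000036834) read 169, 489 and 434 CPM in WT and 96.9, 374 and 138 CPM in lf:Yap. Replicate 1 was lowest and replicate 2 highest in each group, and the difference was -0.84 ± 0.58 (log2, SE; adjusted p = 0.677, edgeR). In the same run, with krt17 between them, krt91 (ENSDARG00000036830) read 167, 244 and 134 CPM in WT and 92.6, 94.8 and 228 CPM in lf:Yap. Here lf:Yap replicate 3 and not 2 was highest in its group. These genes, with krt17, krt1-19d and krt1-19e, form a run of 5 members with log2 fold changes of -0.84 to 0.00. In another run krt94 (ENSDARG00000044975) read 107, 50.3 and 48.5 CPM in WT and 66.1, 80.1 and 84.8 CPM in lf:Yap, krt93 read 0.625 to 1.5 CPM over all libraries and krt98 counted 2 to 30 reads. None of these passed, and their log2 differences were 0.17, 0.35 and 1.54. The same run holds krt15, which went the other way at -0.21 and did not pass either.

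The remaining claudins were low and did not pass. The endothelial CLDN5 genes, whose product seals vessels of brain and other organs, read 0.892 to 1.97 CPM (ENSDARG00000014059) and 0.834 to 1.64 CPM (ENSDARG00000043716), with differences of 0.22 and 0.19 on the log2 scale. CLDND1 read 2.72 to 5.02 CPM, cldnb 0.533 to 3.01 CPM, cldn30 0.4501 to 1.65 CPM and cldng 0.0926 to 0.430 CPM. cldna was at 0 in lf:Yap replicate 2 and reached 83 reads in lf:Yap replicate 3. No gene was found under the symbols krt7, krt19, krt20, cldn4, cldn14, cldn15a, cldn15lb and cldn18. Only the 17999 of 25640 IDs with a symbol could be searched.

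Other junction, desmosome and filament genes showed no change past the test. Of 48 genes matched and tested 0 passed by edgeR and 0 by limma-voom, 2 passed by DESeq2 (4.57% of all genes it tested did), and 5 had an unadjusted p under 0.05 (11.3% of all tested genes did), so these counts were near the background. Of the 48, 32 lay above 0, against 11551 of all 24674 tested genes. Their median log2 fold change was 0.21, against -0.03 for all tested genes. The genes called by DESeq2 were pkp3a (ENSDARG00000051861), a desmosomal plakophilin, and PRKCI (ENSDARG00000021225), the polarity kinase aPKC. pkp3a read 47.0, 32.5 and 20.5 CPM in WT and 121, 66.0 and 70.8 CPM in lf:Yap (log2 difference 1.37 ± 0.37, SE; adjusted p = 0.219, edgeR). PRKCI read 13.2, 13.1 and 13.0 CPM in WT and 24.5, 20.5 and 21.2 CPM in lf:Yap, without overlap (0.75 ± 0.18, log2, SE; adjusted p = 0.160, edgeR). The junction genes with the most reads were eppk1 (ENSDARG00000096359), a keratin-binding plakin, CTNNB1 (ENSDARG00000014571) and JUP (ENSDARG00000070787), the catenins of adherens junctions and desmosomes. Their log2 differences were 0.47, 0.43 and 0.10, and none passed. The occludin gene oclna (ENSDARG00000005108), whose protein sits beside claudins in the tight junction, read 22.2 to 24.6 CPM in WT and 18.1 to 24.1 CPM in lf:Yap.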

How the data were processed

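The authors deposited one table of raw counts per Ensembl gene and library, all whole and summing to unequal totals, so apparently unnormalized. The submitters' processing notes name STAR 2.3.0e and HTSeq 0.6.0; the build, the annotation and the strand setting were not given in the sources used here. All genes of the table sum to at least 30 reads. Groups and replicate numbers come from the sample titles. Symbols from a table of gene IDs matched 17999 of 25640 IDs, many in human-style capitals without the paralog letter, which list entries also matched; cldn23.1 took its type from a RefSeq synonym.

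Counts were tested in R 4.3.3 with edgeR 4.0.16 (filterByExpr kept 24674 genes, TMM factors of 0.939 to 1.108, robust quasi-likelihood fits, two-sided, Benjamini-Hochberg at 0.05). The standard error is the log2 fold change divided by the square root of F. Alternatives were DESeq2 1.42.0, limma 3.58.1 (voom), RLE factors, other filters, a replicate block and each library left out. The common biological coefficient of variation came to 44.9%, and depth leaves counting error small against it above 1 CPM. Replicates differed beyond sampling noise (chi-square per degree of freedom 209 to 369). Members and lists were chosen with earlier results of these data known. Named in every library were members that passed, typed members of at least 0.5 CPM, the 3 of each family with most reads and the 4 with the lowest p; others were added after their values were seen.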

Additional observations from a re-analysis of the deposited data

How the results depend on the processing

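The 2 calls among members, cldn3d and the CLDN11 gene ENSDARG00000020031, were also made by DESeq2, limma-voom, RLE factors, no filter and the filter of 1 CPM in 3 libraries. Without 1 library 0 to 1 members and 32 to 94 genes passed. Without WT replicate 3 and lf:Yap replicate 2, an alternative chosen after seeing the data, 0 members and 0 genes passed. DESeq2 called 1073 genes over the whole table and 2 junction genes. With the replicate block 0 members and 17 genes passed. Same-numbered libraries had correlations of deviations of 0.149, 0.169 and -0.299, so the numbers were not taken as pairs. Medians moved more than the spread between libraries for claudins (0.100 to 0.638 without 1 library), hepatocyte-type (-0.252 to 0.089), bile duct-type (-0.194 to 1.04, and 0.837 with the filter of 1 CPM) and intestine-type members (1.25 to 2.90). The cause was not tested, except that the filter left fewer bile duct-type genes.

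Of 42 tested members 21 kept their direction under every alternative, and none of the others was called. limma-voom turned cldn7a (0.316), cldn3c (0.226) and cldna (-0.336), and the block turned cldn7a (0.135). Without WT replicate 3 and lf:Yap replicate 2, the difference was -0.174 for CLDN5 (ENSDARG00000043716), 0.074 for CLDN12, -0.131 for CLDND1, -0.085 for KRT222, -0.616 for krt1-19e and -0.056 for krt94, all turned in sign; krt1-c5 stayed below 0 (-0.836). Without 1 library the ranges that crossed 0 were -0.768 to 1.04 for cldn7a, -0.194 to 0.329 for cldn7b, -0.032 to 0.563 and -0.016 to 0.443 for the CLDN5 genes, -0.166 to 1.01 for cldni, -0.095 to 0.050 for CLDN12, -0.252 to 0.228 for CLDN2, -1.23 to 1.51 for cldn3c, -0.256 to 0.435 for CLDN19, -0.174 to 0.238 for CLDND1, -0.212 to 1.76 for cldna, -0.226 to 0.538 for cldnb, -1.07 to 0.398 for krt1-19d, -0.633 to 0.007 for krt1-c5, -0.660 to 0.204 for krt15, -0.776 to 0.403 for krt4, -0.204 to 1.10 for krt5, -0.453 to 0.082 for krt18b, -0.495 to 1.88 for krt1-19e and -0.046 to 0.656 for krt94. Depth limits members under 0.5 CPM, where a library counts few reads.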
